A study of Mus musculus with 5 samples.

Results

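The 36 genes described here encode heat shock proteins, their co-chaperones and the factors that control them, and were matched by NCBI gene identifier among the 27179 genes of the count table. All 36 were found, and 35 had enough counts to test, against 9988 genes in all. They were divided by role into HSP70 proteins (7 genes), cytosolic HSP90 proteins (2), DnaJ proteins (7), the small heat shock protein Hspb1, chaperonins (8), chaperones of the endoplasmic reticulum or ER (5), other co-chaperones (4) and heat shock factors (2). Messenger RNA was sequenced from Langerhans cells, the resident dendritic-like phagocytes of the epidermis. The groups were Suz12 cKO (conditional knockout of Suz12, 3 biological replicates) and wild type, written WT (2 biological replicates), both at 1 week of age on the C57BL/6 background and each library from 5000 cells. The labels name neither the Cre driver of the knockout nor any allele carried by WT mice, and do not say whether animals were pooled for a library. Suz12 belongs to the core of Polycomb repressive complex 2, which methylates histone H3 and keeps developmental genes silent.

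Molecular chaperones bind unfolded proteins and let them fold. HSP70 proteins hold short stretches of a client and release them on a cycle of ATP hydrolysis that DnaJ proteins start and nucleotide exchange factors end. HSP90 proteins take over clients such as kinases and receptors, and chaperonins enclose a client in a barrel. Heat and other protein-damaging stress activate Hsf1, which binds heat shock elements, whereas stress in the ER acts through ER stress response elements. Antigen-presenting cells also need ER chaperones to assemble surface receptors such as Toll-like receptors.

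The targeted gene lay in the direction of the labels. Suz12 had 0, 0 and 7 counts in Suz12 cKO replicates 1 to 3, against 88 and 39 counts in WT replicates 1 and 2. The libraries held 12090062 to 25725900 counts in Suz12 cKO, against 17041996 and 18656968 in WT. The 10 Langerhans cell markers were all tested and summed to 126437 to 134456 CPM (counts per 1000000, after scaling between libraries) in Suz12 cKO, against 113466 and 135673 CPM in WT, although a source label names alveolar macrophages. Of 12 keratinocyte markers 11 were tested, with all 12 detected. They summed to 928, 1219.6 and 1081 CPM in Suz12 cKO replicates 1 to 3, against 356 and 818 CPM in WT replicates 1 and 2, so the groups did not overlap. T cell markers summed to 249.8 to 787 CPM in Suz12 cKO, against 511 and 654 CPM in WT, melanocyte markers to 32.7 to 143 CPM, against 39.7 and 431 CPM in WT, and fibroblast markers to 3.82 to 195 CPM, against 21.2 and 109 CPM in WT. The part of these cells in the results below was not tested. Because the libraries are bulk samples, fewer cells of a type and less RNA per cell cannot be told apart.

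Promoters were compared for elements known from the heat shock and ER stress responses. RefSeq windows on GRCm38.p6, from 250 bases before to 50 after a start, were matched for 29 of the 36 genes. Hspa8, Hspa9, Hsp90aa1, Hsp90ab1, Cct4, St13 and Hsf1 had no window and were not searched. The 29 genes had a median GC content of 62.7% and a median ratio of observed to expected CpG of 0.901, against 52.7% and 0.389 over 27025 genes with a window. The heat shock element was searched as the units GAA and TTC in alternation with 2 free bases between them, on both strands. The 2-unit forms are GAANNTTC and TTCNNGAA, and the 3-unit forms, which contain them, add a unit. The 3-unit element was found at Hspd1, Hspe1, Hsph1 and Dnajb6, 4 of 29 genes (13.8%), against 0.662% of all genes. The windows of Hspd1 and Hspe1 overlap and hold the same matches, so the same stretch is counted for both genes. A 2-unit element was found in 12 of 29 (41.4%), Hspa1a and Hspa1b among them, against 17.0% of all genes. The ER stress response element, searched on both strands as CCAAT, 9 free bases and CCACG, was found at Hspa5, Hsp90b1 and Dnajc3, 3 of 29 genes (10.3%), against 0.137% of all genes. Its second form, ATTGG, 1 free base and CCACG, was found at Dnajb11, against 0.0444% of all genes. These matches are descriptions of the sequence, and binding was not measured.

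The first set shows the heat shock element in capitals. It is marked in the promoter of Hspe1 (chr1:55087898-55088197, plus strand), a window that lies wholly inside the overlapping, divergent gene Hspd1. It is also marked in stretches of Hsph1 (chr5:149636287-149636312, minus strand) and Dnajb6 (chr5:29735840-29735876, plus strand).
Hspe1: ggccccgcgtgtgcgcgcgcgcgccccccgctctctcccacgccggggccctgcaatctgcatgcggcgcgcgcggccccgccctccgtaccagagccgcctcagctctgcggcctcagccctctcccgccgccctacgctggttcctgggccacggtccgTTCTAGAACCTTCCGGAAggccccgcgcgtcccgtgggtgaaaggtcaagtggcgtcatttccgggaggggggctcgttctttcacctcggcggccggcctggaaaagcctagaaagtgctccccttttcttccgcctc
Hsph1: aaatgctgcagaTTCTGGAAAGTTCt
Dnajb6: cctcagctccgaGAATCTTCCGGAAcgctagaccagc

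The second set shows the ER stress response element in capitals, in the promoter of Hspa5 (chr2:34771840-34772139, plus strand), in a stretch of Hsp90b1 that holds 2 copies (chr10:86705521-86705668, minus strand) and in a stretch of Dnajc3 (chr14:118937815-118937857, plus strand), with the second form in a stretch of Dnajb11 (chr16:22857840-22857874, plus strand).
Hspa5: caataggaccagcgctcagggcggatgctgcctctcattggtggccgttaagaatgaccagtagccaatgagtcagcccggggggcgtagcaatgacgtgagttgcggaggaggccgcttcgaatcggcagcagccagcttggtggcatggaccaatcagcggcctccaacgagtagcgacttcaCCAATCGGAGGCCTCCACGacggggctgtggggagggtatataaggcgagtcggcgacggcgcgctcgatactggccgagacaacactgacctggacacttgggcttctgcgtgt
Hsp90b1: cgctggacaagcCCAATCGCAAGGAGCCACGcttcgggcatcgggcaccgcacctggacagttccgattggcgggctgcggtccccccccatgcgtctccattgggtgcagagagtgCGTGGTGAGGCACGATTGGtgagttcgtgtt
Dnajc3: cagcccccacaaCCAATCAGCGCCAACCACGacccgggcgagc
Dnajb11: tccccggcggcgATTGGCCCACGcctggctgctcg

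The third set is shown for Dnajb2, the gene with the widest difference between genotypes, and for the near-identical pair Hspa1a and Hspa1b. In the promoter of Dnajb2 (chr1:75236173-75236472, plus strand) the capitals mark the 5 matches to the GC box GGGCGG on either strand. Neither form of the heat shock element nor of the ER element was found in its windows. The GC box was found in 28 of 29 genes (96.6%), against 38.2% of all genes. In Hspa1a (chr17:34972107-34972406, minus strand) and Hspa1b (chr17:34959189-34959488, minus strand) the capitals mark the 2-unit heat shock element. These 2 promoters were identical at 296 of 300 positions (98.7%).
Dnajb2: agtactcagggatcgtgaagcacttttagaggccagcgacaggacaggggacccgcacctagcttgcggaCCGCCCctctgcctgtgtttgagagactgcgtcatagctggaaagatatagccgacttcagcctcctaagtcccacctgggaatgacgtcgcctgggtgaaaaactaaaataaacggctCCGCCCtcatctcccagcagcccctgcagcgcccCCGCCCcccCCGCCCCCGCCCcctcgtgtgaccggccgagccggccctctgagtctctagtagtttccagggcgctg
Hspa1a: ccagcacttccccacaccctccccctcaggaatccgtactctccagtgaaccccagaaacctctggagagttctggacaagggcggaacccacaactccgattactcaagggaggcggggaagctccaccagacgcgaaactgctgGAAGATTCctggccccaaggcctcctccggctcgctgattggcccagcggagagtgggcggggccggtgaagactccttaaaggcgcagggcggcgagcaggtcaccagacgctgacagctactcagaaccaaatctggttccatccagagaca
Hspa1b: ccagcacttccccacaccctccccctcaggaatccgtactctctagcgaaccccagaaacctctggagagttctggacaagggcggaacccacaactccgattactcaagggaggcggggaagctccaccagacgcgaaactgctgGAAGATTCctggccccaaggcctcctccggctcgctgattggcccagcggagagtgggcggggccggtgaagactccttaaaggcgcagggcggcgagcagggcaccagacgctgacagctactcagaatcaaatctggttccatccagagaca

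Most chaperone genes had overlapping levels in the genotypes. Together they summed to 9373, 9316 and 8082 CPM in Suz12 cKO replicates 1 to 3, against 9975 and 8523 CPM in WT replicates 1 and 2, and the ranges overlapped. Hspa5 alone gave 37.7% to 41.8% of this sum in Suz12 cKO, against 35.97% and 36.13% in WT. None of the 35 tested genes was called by edgeR at an adjusted p of 0.05, where the share over all 9988 genes was 0%. At an unadjusted p of 0.05 there were 3 (Dnajb2, Hsp90ab1 and Cct5), where the share over all genes was 4.15% (415 genes). Of the 35 genes 18 had a fitted log2 fold change (Suz12 cKO minus WT) above 0 and 17 below, with a median of 0.05, against 52.5% above 0 and a median of 0.06 over all tested genes. The libraries of the 2 genotypes did not overlap for 8 of the 35 (22.9%), against 19.0% over all tested genes. Of these, 4 lay higher in every Suz12 cKO library (Dnajb2, Dnaja1, Hspd1 and Cct4), where the share over all genes was 8.87%, and 4 lay lower (Hspa14, Hsp90ab1, Cct5 and Hsp90b1), where it was 10.2%. The other 27 overlapped, with 14 above 0 and 13 below and log2 fold changes between -0.80 and 1.32.

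**Figure D1:**
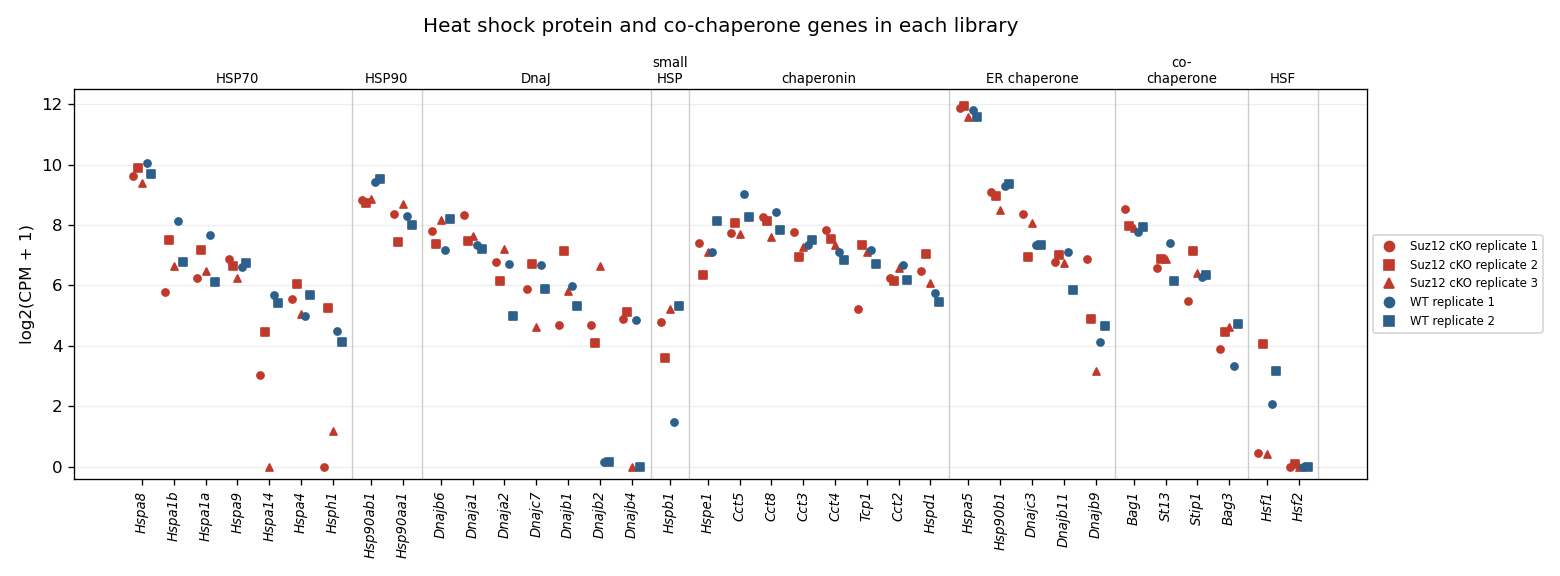
Level of each of the 36 genes on the log2(CPM + 1) scale, 1 point per library, by family and, within a family, by mean level per length. Red points are Suz12 cKO libraries and blue points WT libraries. Dnajb2 lies near 0 in both WT libraries, at 0.106 and 0.118 CPM, and at 16.04 to 97.96 CPM in Suz12 cKO, while most genes lie close together.

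Some genes were detected in only part of the libraries. Over all 5 libraries, a level of at least 10 CPM somewhere together with one below 1 CPM elsewhere was found for Dnajb2, Dnajb4, Hspa14, Hsph1 and Hsf1, 5 of the 35 genes (14.3%), against 36.9% of all tested genes. For Dnajb2 this difference lay between the genotypes alone, and for Hsf1 within Suz12 cKO alone. For Hspa14, Hsph1 and Dnajb4 it lay between the genotypes and within Suz12 cKO, and for Dnajb4 within WT too. Of the 32 with a count in every library, the highest library had a median of 2.48 times the lowest, against 3.76 times over 6104 such genes.

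**Figure D2:**
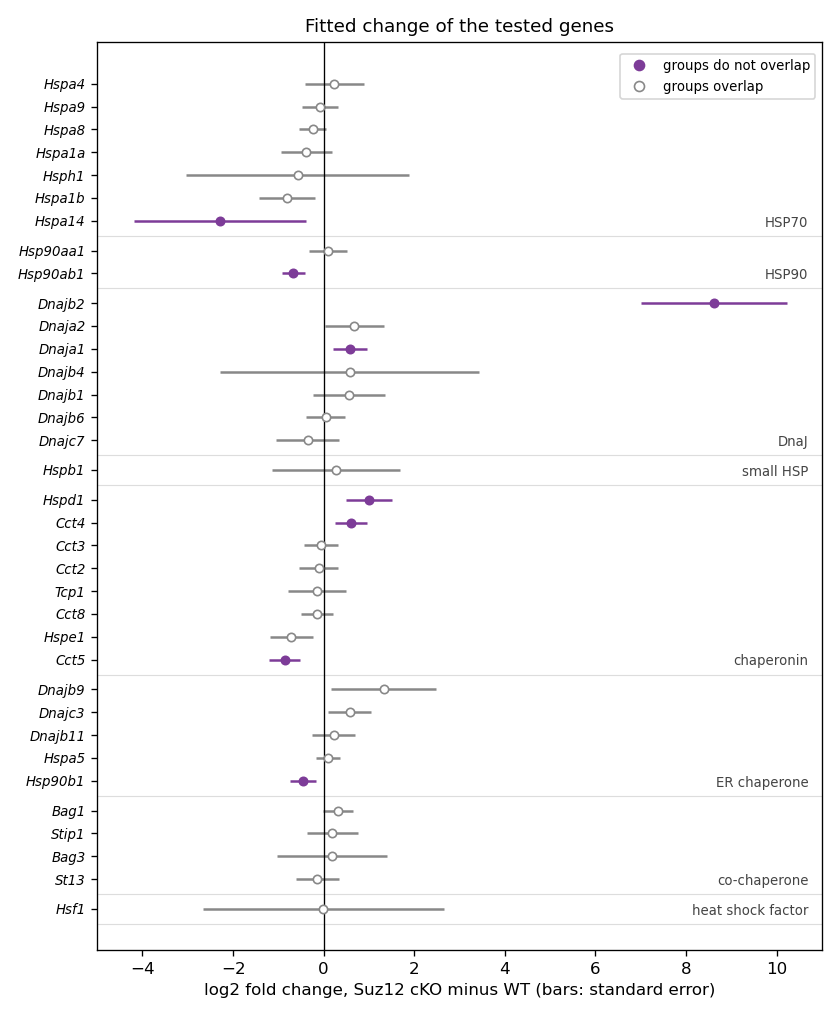
Fitted log2 fold change of each tested gene, Suz12 cKO minus WT, with its standard error. Filled points are the 8 genes whose libraries do not overlap between genotypes. Dnajb2 stands at 8.61, and all others lie between -2.29 and 1.32.

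Among DnaJ proteins, which deliver clients to HSP70 and start its ATP hydrolysis, Dnajb2 was detected in every Suz12 cKO library and close to absent in WT. The gene lies on chromosome 1 at 75236395 to 75245692 (mm10) and encodes a co-chaperone that also binds ubiquitin and is best known in neurons. It had 399, 453 and 1141 counts in Suz12 cKO replicates 1 to 3, against 2 counts in each WT library. These correspond to 24.97, 16.04 and 97.96 CPM in Suz12 cKO, against 0.106 and 0.118 CPM in WT, where the exact Poisson limits at 95% ran from 0.0128 to 0.382 CPM and from 0.0143 to 0.426 CPM. All 3 Suz12 cKO libraries lay above both WT libraries, with replicate 3 the highest. Over the groups, 1993 counts in Suz12 cKO against 4 in WT gave a ratio of 319.7 (95% exact interval 125 to 1175, counting error only). On the log2 scale the fitted difference was 8.61 (standard error 1.61). The gene was singled out with this difference known, so its p (edgeR adjusted p = 0.968) is given as a description. DESeq2 gave an adjusted p of 1.57e-07, where it called 6.41% of all genes with an adjusted p, and 8.41e-07 when run on the genes tested by edgeR, where it called 2.12%. The edgeR adjusted p ranged from 0.467 to 1 over the settings tried. No stretch of 75 bases of its transcripts occurred in another gene of the GENCODE annotation, and its exons overlapped no other gene.

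No other DnaJ gene among the members had a fitted difference of this size. Of the 35 genes, only Dnajb2 had at most 3 counts in every WT library and at least 10 CPM in every Suz12 cKO library. This pattern was found in 14 of 9988 tested genes (0.14%) and in none of 25 further tested DnaJ genes. The reverse, with the genotypes exchanged, was found in 30 of 9988 tested genes (0.30%). Dnajb2 was singled out with its values known, so its pattern is given as a description. Of the 10 DnaJ genes among the members, ER proteins included, 9 had a log2 fold change above 0, with a median of 0.57, and without Dnajb2 the median over 9 was again 0.57. Of the 25 further DnaJ genes 13 lay above 0 and 12 below, with a median of 0.03. edgeR called none of them, where the share over all tested genes was 0%. DESeq2 with its own filter called 6.41% of all genes with an adjusted p. Of the 39 listed, it called Dnajc10 and 3 genes that edgeR left untested, Dnaja4, Dnajc12 and Dnajc16. These had 306, 215 and 99 counts in Suz12 cKO replicate 1 and 0 counts in every other library of both genotypes, so each rests on 1 library.

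The cytosolic DnaJ genes other than Dnajb2 differed by far less. Dnaja1, a farnesylated partner of Hspa8, lay at 320, 176 and 197 CPM in Suz12 cKO replicates 1 to 3, against 162 and 147 CPM in WT. The Suz12 cKO libraries were all higher, but its log2 fold change of 0.58 had a standard error of 0.38 (edgeR adjusted p = 0.999). Its exons overlap those of Smu1 on the opposite strand, and 18.4% of its 75-base windows occur in another gene. Dnajb6, which keeps aggregation-prone proteins soluble and had the highest level per length of this family, lay at 223, 165 and 289 CPM in Suz12 cKO, against 142 and 295 CPM in WT, with overlap. Dnajb1, the stress-inducible partner of HSP70, lay at 24.9, 141 and 55.2 CPM in Suz12 cKO, against 61.8 and 38.8 CPM in WT, so that Suz12 cKO replicates 1 and 2 bracketed both WT libraries. Dnajb4 had no count in Suz12 cKO replicate 3 or WT replicate 2 and lay between 28.2 and 34.0 CPM in the other libraries. The libraries without a count are those whose titles spell out the cell name, where the others abbreviate it to LC, and whether this marks a batch is not stated. Dnaja2, a relative of Dnaja1, and Dnajc7, which binds both HSP70 and HSP90, overlapped too, with log2 fold changes of 0.68 (standard error 0.64) and -0.35 (0.70). The value of Dnaja2 was 1.83 without WT replicate 1 and 0.0455 without WT replicate 2. Without Dnajb2, these 6 cytosolic genes summed to 762, 690.01 and 712 CPM in Suz12 cKO, against 599 and 568 CPM in WT. The 39 further DnaJ genes summed to 1182, 935 and 1227 CPM in Suz12 cKO, against 1273 and 1294 CPM in WT. Neither pair of sums overlapped, and the sums lay on opposite sides: higher in Suz12 cKO for the 6 genes and lower for the 39. Of the 25 further tested genes 1 lay higher in every Suz12 cKO library (Dnajc10), where the share over all tested genes was 8.87%. Another 4 lay lower (Dnajc2, Dnajc4, Dnajc15 and Dnajc19), where it was 10.2%.

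The genes around Dnajb2 were examined as well. Of the 6 protein-coding genes on each side, 6 of 12 were tested, 4 above 0 and 2 below, and 4 had no count in any library. Stk16, a membrane-associated kinase, lay at 24.1, 31.0 and 28.6 CPM in Suz12 cKO, against 14.2 CPM in each WT library. Tuba4a, an alpha-tubulin, lay at 182, 148 and 146 CPM in Suz12 cKO, against 131 and 121 CPM in WT. Gmppa, which regulates GDP-mannose synthesis, lay at 0, 10.5 and 1.55 CPM in Suz12 cKO, against 23.1 and 19.8 CPM in WT. Stk16 and Tuba4a thus lay higher and Gmppa lower in every Suz12 cKO library, where 19.0% of all tested genes did not overlap, and none was called (edgeR adjusted p = 0.999 for each). The adjacent genes on either side, A630095N17Rik and Ptprn, had no count in any library.

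**Figure D3:**
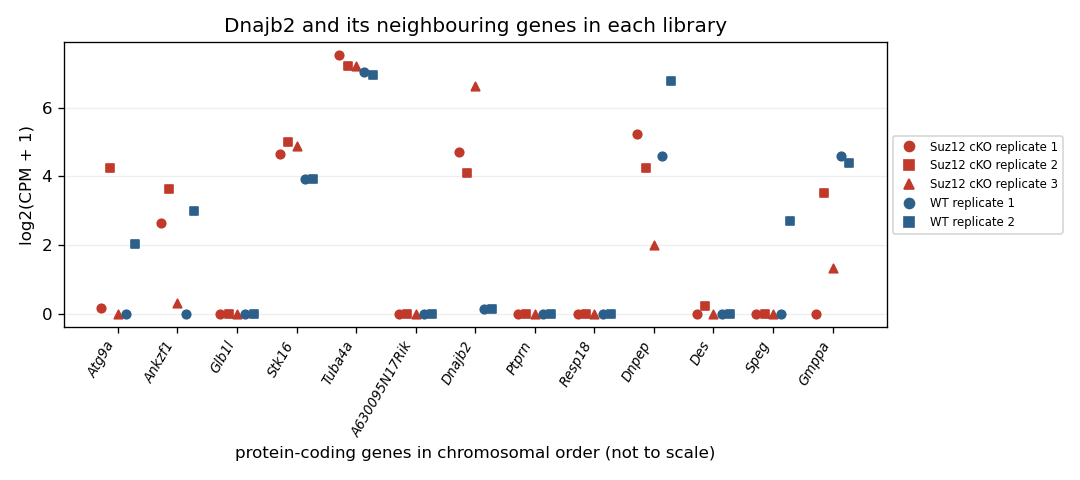
Levels of Dnajb2 and of the 6 protein-coding genes on each side on the log2(CPM + 1) scale, 1 point per library, in chromosomal order and not to scale. Red points are Suz12 cKO and blue points WT. Between 2 neighbours without a count, Dnajb2 separates the genotypes by far more than Stk16 or Tuba4a.

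HSP70 genes overlapped between genotypes except Hspa14, where 19.0% of all tested genes did not overlap. No HSP70 gene was called by edgeR, where the share over all tested genes was 0%. Of 7 genes 6 had a log2 fold change below 0 and 1 above, with a median of -0.39, and the family summed to 1078, 1489 and 958 CPM in Suz12 cKO, against 1746 and 1209.8 CPM in WT, with overlap. Hspa8, the constitutive HSP70 and the most abundant of the family per length, lay at 779.8, 942 and 664 CPM in Suz12 cKO, against 1067 and 817 CPM in WT. Its log2 fold change was -0.24 (standard error 0.29; edgeR adjusted p = 0.999), and -0.0353 without WT replicate 1. Hspa14, a ribosome-associated HSP70 relative, lay at 7.20, 21.2 and 0 CPM in Suz12 cKO, against 50.6 and 42.2 CPM in WT. All Suz12 cKO libraries were lower, but they differed widely among themselves, and the log2 fold change of -2.29 had a standard error of 1.91 (edgeR adjusted p = 0.999). The value was -3.69 without Suz12 cKO replicate 2, -1.68 without Suz12 cKO replicate 3 and -5.44 with a term for how the sample titles are written. A gene named Gm45902 on the same strand shares 6.21% of its 75-base windows.

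The stress-inducible pair Hspa1a and Hspa1b overlapped between genotypes and shared their highest libraries. Hspa1b lay at 54.1, 179.8 and 98.3 CPM in Suz12 cKO, against 278 and 109 CPM in WT, and Hspa1a at 75.6, 145 and 88.5 CPM in Suz12 cKO, against 202 and 67.7 CPM in WT. WT replicate 1 was the highest library and Suz12 cKO replicate 2 the second for both genes. A read of either gene can match the other: 52.7% of the 75-base windows of Hspa1a occur in Hspa1b, and 55.8% of those of Hspa1b in Hspa1a. How such reads were counted is not stated. Without WT replicate 1 the log2 fold change of Hspa1a was 0.61 in place of -0.39, and that of Hspa1b 0.03 in place of -0.80. Hsph1, an HSP110 that exchanges nucleotides on HSP70, had 0, 1043 and 15 counts in Suz12 cKO, against 405 and 278 counts in WT. Suz12 cKO replicate 2 thus lay above both WT libraries and replicates 1 and 3 below both. Immediate early genes, which respond to cell handling, summed to 4402, 9443 and 5866 CPM in Suz12 cKO, against 6387 and 5146 CPM in WT, with replicate 2 of Suz12 cKO again the highest in its group; their part in these values was not tested. Hspa4, a relative of Hsph1, and Hspa9, the HSP70 of mitochondria, had log2 fold changes of 0.24 (standard error 0.64) and -0.08 (0.40).

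**Figure D4:**
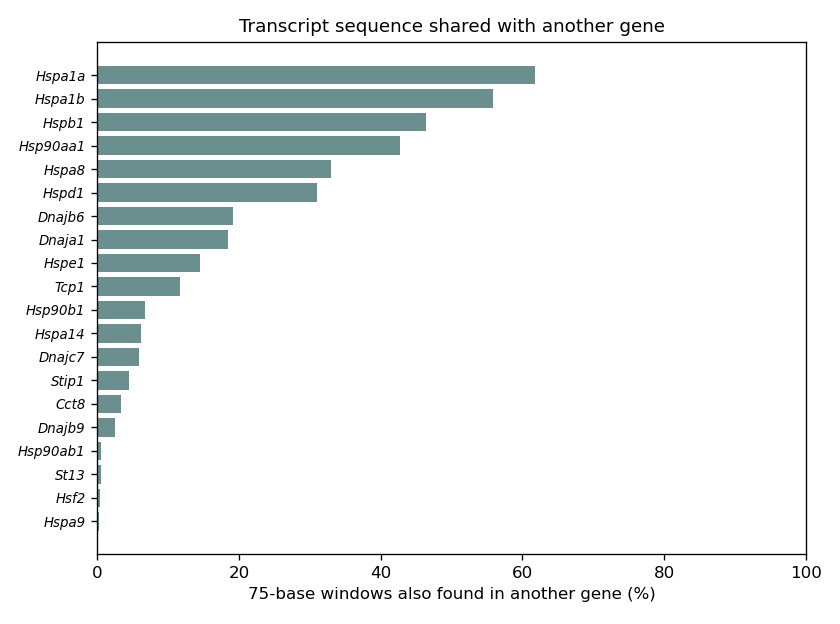
Share of the distinct 75-base windows of a gene's GENCODE transcripts that also occur, on either strand, in transcripts of another gene, for the 20 members with any. The bars of Hspa1a and Hspa1b reach 61.7% and 55.8%, and the 16 members not drawn, Dnajb2 among them, share none.

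Of the cytosolic HSP90 proteins, the constitutive one lay lower in Suz12 cKO. Hsp90ab1 lay at 452, 428 and 465 CPM in Suz12 cKO replicates 1 to 3, against 690.2 and 735 CPM in WT replicates 1 and 2. The groups lay further apart than the spread within either, at 448 ± 18.8 CPM in Suz12 cKO and 713 ± 31.6 CPM in WT (SD, n = 3 and n = 2). Its log2 fold change of -0.67 (standard error 0.25) missed the threshold once adjusted over all genes (edgeR adjusted p = 0.968, DESeq2 adjusted p = 0.0523). Run on the genes tested by edgeR, DESeq2 gave Hsp90ab1 an adjusted p of 0.189. Its windows were nearly all its own, with 0.537% in other genes. The inducible Hsp90aa1 lay at 328, 174 and 414 CPM in Suz12 cKO, against 314 and 257 CPM in WT, with overlap. It shares 42.8% of its windows with other genes, mostly with a copy named Gm12346. Among further co-chaperones, Ahsa1, which activates the ATPase of HSP90, lay at 37.9, 71.5 and 52.2 CPM in Suz12 cKO, against 132 and 91.8 CPM in WT. Sugt1, which links HSP90 to innate immune receptors, lay at 123, 64.8 and 132 CPM in Suz12 cKO, against 179 and 165 CPM in WT. Both lay lower in every Suz12 cKO library, and neither was called (edgeR adjusted p = 0.968 and 0.999). Unc45a, a myosin chaperone that binds HSP90, lay at 31.5, 13.7 and 5.92 CPM in Suz12 cKO, against 3.28 and 0 CPM in WT. Chordc1, another HSP90 partner, lay at 7.88, 3.33 and 27.7 CPM in Suz12 cKO, against 0.741 and 0 CPM in WT. Both of these lay higher in every Suz12 cKO library and were not called (edgeR adjusted p = 0.999 for each). Of the 22 tested genes of that list 8 lay above 0 and 14 below, with a median of -0.27. In that list 2 genes lay higher and 2 lower in every Suz12 cKO library, where the shares over all tested genes were 8.87% and 10.2%.

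Among the ER chaperones, the HSP90 paralog Hsp90b1 also lay lower while the HSP70 paralog Hspa5 did not differ beyond its spread. Hspa5, which encodes BiP, had a mean level per length that ranked 90 of 9988 tested genes. It lay at 3755, 3897 and 3045 CPM in Suz12 cKO, against 3605 and 3066 CPM in WT, and its log2 fold change was 0.10 (standard error 0.26; edgeR adjusted p = 0.999). Hsp90b1, which encodes GRP94 and folds Toll-like receptors and integrins, lay at 541, 498 and 357 CPM in Suz12 cKO, against 621 and 653 CPM in WT. Every Suz12 cKO library was lower, with a log2 fold change of -0.45 (standard error 0.29; edgeR adjusted p = 0.999). Transcripts on the opposite strand or nested in it overlap 15.7% of its exon bases, and whether counting used strand is unknown here. Both promoters hold the ER stress response element shown above, as does that of Dnajc3.

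The 3 ER DnaJ genes had fitted values above 0, and each overlapped between genotypes. Dnajc3, which restrains the kinase PERK, lay at 331, 122 and 266 CPM in Suz12 cKO, against 162 and 161 CPM in WT, so that replicate 2 of Suz12 cKO was below both WT libraries. Dnajb9, a co-chaperone of BiP induced by the unfolded protein response, lay at 116, 28.6 and 8.07 CPM in Suz12 cKO, against 16.6 and 24.0 CPM in WT. Its log2 fold change of 1.32 became -0.11 without Suz12 cKO replicate 1. Dnajb11, another co-chaperone of BiP whose promoter holds the second form of the element, lay between 105 and 127 CPM in Suz12 cKO, against 57.1 and 137 CPM in WT, which lay on either side. In the list for ER folding and the unfolded protein response, 20 of 21 genes were tested, 15 above 0 and 5 below, with a median of 0.16. edgeR called none of them, where the share over all tested genes was 0%. Ddit3, which encodes the stress factor CHOP, lay at 63.3, 32.1 and 73.5 CPM in Suz12 cKO, against 128 and 113 CPM in WT. Xbp1, a transcription factor that drives ER chaperone genes, lay at 604, 369.5 and 573 CPM in Suz12 cKO, against 395 and 267 CPM in WT. The libraries were separate for Ddit3 (edgeR adjusted p = 0.968) and overlapped for Xbp1 (edgeR adjusted p = 0.999).

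The mitochondrial chaperonin genes Hspd1 and Hspe1 had fitted differences of opposite sign and lie head to head on chromosome 1, with starts at 55088243 on the minus strand and 55088148 on the plus strand. Hspd1 encodes the HSP60 barrel and lay at 87.7, 129.7 and 67.1 CPM in Suz12 cKO, against 52.5 and 42.4 CPM in WT. All 3 Suz12 cKO libraries were higher, with a log2 fold change of 0.999 and a standard error of 0.50 (edgeR adjusted p = 0.968). Hspe1 encodes the HSP10 lid and lay at 167, 80.0 and 138 CPM in Suz12 cKO, against 138 and 282 CPM in WT. Suz12 cKO replicate 1 lay above WT replicate 1, and its log2 fold change was -0.71 (standard error 0.48; edgeR adjusted p = 0.999), and -0.11 without WT replicate 2. The ratio of Hspd1 to Hspe1 in CPM was 0.526, 1.62 and 0.487 in Suz12 cKO, against 0.380 and 0.150 in WT, higher in every Suz12 cKO library. This separation was not particular to the pair. Cct4 to Cct5 gave 0.685 to 1.07 in Suz12 cKO, against 0.260 and 0.376 in WT. Hspa1a to Hspa1b gave 0.806 to 1.40, against 0.725 and 0.623 in WT. Hsp90aa1 to Hsp90ab1 overlapped, at 0.407 to 0.890 against 0.456 and 0.349 in WT. Of the 75-base windows 31.0% of Hspd1 and 14.6% of Hspe1 occur in other genes, mostly in a pseudogene for Hspd1, and their exons overlap over 112 bases on opposite strands.

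The subunits of the cytosolic chaperonin, a ring of related proteins that folds actin and tubulin, had fitted differences on both sides of 0. No subunit was called by edgeR, where the share over all tested genes was 0%. Cct5 lay at 212, 267 and 208 CPM in Suz12 cKO, against 525 and 304 CPM in WT, lower in every Suz12 cKO library, with a log2 fold change of -0.86 and a standard error of 0.34 (edgeR adjusted p = 0.968). Cct4 lay at 228, 183 and 161 CPM in Suz12 cKO, against 136 and 114 CPM in WT, higher in every Suz12 cKO library, with a log2 fold change of 0.61 and a standard error of 0.35 (edgeR adjusted p = 0.999). Neither shares a 75-base window with another gene or overlaps one. The remaining subunits, Cct2, Cct3, Cct8 and Tcp1, overlapped between genotypes, with log2 fold changes between -0.15 and -0.06. Tcp1 was low in Suz12 cKO replicate 1 alone, at 36.1 CPM, against 105 to 162 CPM in the other libraries. Of 10 further tested chaperonin and prefoldin genes 3 lay above 0 and 7 below, with a median of -0.18. Among these the prefoldin subunit Pfdn4 lay at 242, 134 and 149.6 CPM in Suz12 cKO, against 115 and 386 CPM in WT, and the chaperonin subunit Cct7 at 157, 243 and 110.2 CPM, against 252 and 159 CPM in WT. Neither was separate between genotypes.

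The small heat shock protein Hspb1, an ATP-independent holdase that is abundant in keratinocytes, was scarce in 1 library. It lay at 26.7, 11.2 and 36.2 CPM in Suz12 cKO, against 1.80 and 39.1 CPM in WT replicates 1 and 2. WT replicate 1 was also the library with the lowest sum of keratinocyte markers, at 356 CPM. The other sums were 928, 1219.6 and 1081 CPM in Suz12 cKO replicates 1 to 3 and 818 CPM in WT replicate 2. Suz12 cKO replicate 2 thus had the highest sum but 11.2 CPM of Hspb1, and WT replicate 2 the highest Hspb1. The part of keratinocytes in Hspb1 was not tested. Without WT replicate 1 the log2 fold change of Hspb1 was -0.66 in place of 0.27, and without WT replicate 2 it was 3.77. Of its windows 46.4% occur in the pseudogene Hsp25-ps1.

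The remaining co-chaperones showed no separation of the genotypes. Bag1, a nucleotide exchange factor of HSP70 that binds Bcl2, lay at 373, 251 and 239.8 CPM in Suz12 cKO, against 217 and 246 CPM in WT. Its log2 fold change of 0.31 had a standard error of 0.33 (edgeR adjusted p = 0.999). Stip1, the adaptor that joins HSP70 to HSP90, lay at 43.3, 139.7 and 85.1 CPM in Suz12 cKO, against 76.8 and 79.9 CPM in WT. The WT libraries thus lay inside the wide range of Suz12 cKO. Bag3, which sends clients to autophagy, and St13, which stabilises the bound state of HSP70, had log2 fold changes of 0.19 (standard error 1.22) and -0.14 (0.47).

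Heat shock factors were sparsely detected. Hsf1, the master regulator of the heat shock response, had 6, 448 and 4 counts in Suz12 cKO, against 60 and 135 counts in WT. Suz12 cKO replicate 2 was the highest library and replicates 1 and 3 the lowest, as for Hsph1, and the log2 fold change of -0.01 had a standard error of 2.66. Hsf2 had 2 counts in Suz12 cKO replicate 2 and none elsewhere, under the floor of 3 counts, which is 0.106 CPM in the deepest library and 0.258 CPM in the shallowest. It was not tested, and its level was not detectable at this depth. The regulator Hsbp1, which binds trimers of Hsf1, lay at 743, 480.2 and 444 CPM in Suz12 cKO, against 559 and 545 CPM in WT.

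**Figure D5:**
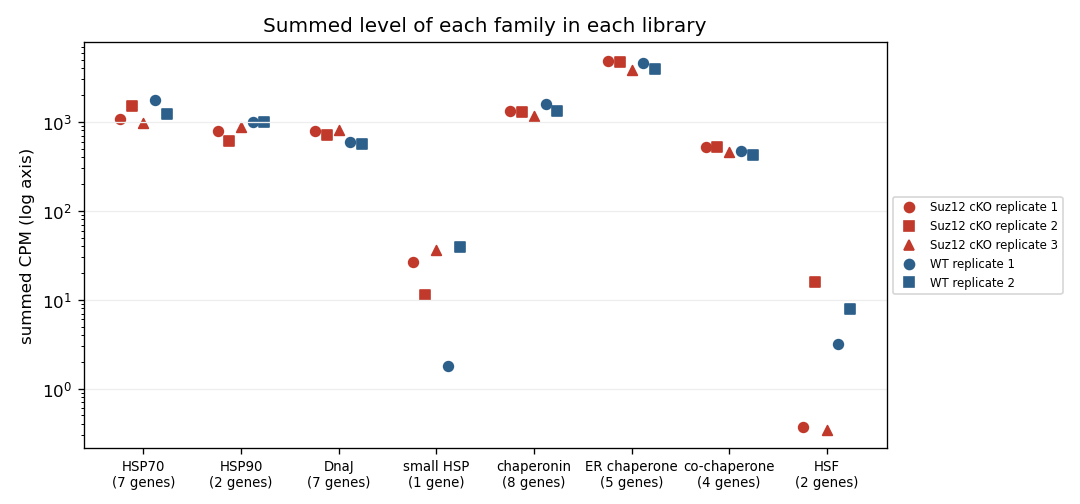
Summed CPM of each family in each library on a log axis, with Suz12 cKO in red and WT in blue. The sums of the 7 cytosolic DnaJ members lie at 706 to 809.7 CPM in Suz12 cKO, all above the WT sums of 599 and 568 CPM, whereas the 39 further DnaJ genes, not drawn, summed lower in Suz12 cKO. The HSP90 sums lie at 602 to 879 CPM, all below 1005 and 992 CPM, and the other families overlap.

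Genes of the further chaperone and stress lists were likewise not called by edgeR, where the share over all tested genes was 0%. Of 6 further tested heat shock proteins 4 lay above 0 and 2 below, with a median of 0.83. Trap1, the mitochondrial HSP90, lay at 54.0, 100.4 and 62.5 CPM in Suz12 cKO, against 45.1 and 7.37 CPM in WT, higher in every Suz12 cKO library. Hspa13, a microsomal HSP70 relative, lay at 39.1, 63.7 and 84.9 CPM in Suz12 cKO, against 43.8 and 21.1 CPM in WT, with overlap. Dnajc10, an ER DnaJ protein that reduces disulfide bonds, lay at 39.1, 96.2 and 31.7 CPM in Suz12 cKO, against 2.22 and 9.14 CPM in WT. After Dnajb2 it was the DnaJ gene with the smallest unadjusted p of those tested, with a log2 fold change of 3.29 and a standard error of 1.07 (edgeR adjusted p = 0.968, DESeq2 adjusted p = 0.0153). Dnajc15, of the mitochondrial import motor, lay at 299, 182 and 462 CPM in Suz12 cKO, against 517 and 535 CPM in WT, lower in every Suz12 cKO library (edgeR adjusted p = 0.999). Of 17 immediate early genes 12 lay above 0 and 5 below, with a median of 0.21. Junb, a subunit of the factor AP-1, lay at 732, 1119 and 899 CPM in Suz12 cKO, against 809 and 570.1 CPM in WT, and the zinc finger factor Klf6 at 462, 740.5 and 608 CPM, against 486 and 437 CPM in WT. Neither separated the genotypes.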

How the data were processed

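The authors deposited raw counts per gene for 5 libraries and the gene lengths, both in a series table and, with identical values, per sample. Per the submitters' processing notes, featureCounts and the mm10 build were used; the sources used here do not say how strand or multiply matching reads were treated. Low-input (SMART-Seq) complementary DNA libraries were made from poly(A) RNA, per the labels.

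Symbols, coordinates and promoters came from RefSeq on GRCm38.p6, the build of mm10; 1904 of 27179 identifiers had no symbol and stayed in the fit. edgeR 4.0.16 (R 4.3.3) was run on all genes with filterByExpr (minimum count 10), TMM factors, the robust quasi-likelihood F test and Benjamini-Hochberg adjustment over 9988 genes, at a threshold of 0.05. A standard error is the log2 fold change over the square root of F. CPM use effective library sizes. Intervals and floors cover counting error only. Windows of 75 bases, the length of each read of a paired-end run, and exons were compared in GENCODE vM21. The windows take no account of the mate of a read. Figures were drawn with matplotlib 3.10.9.

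Genes, lists and the naming rule were chosen with earlier results of these data known. The rule took Suz12, Dnajb2, genes without overlap, the highest per length and smallest p in each family, and up to 2 genes with the smallest p in each further list. Any other gene with values, the ratios of gene pairs and the neighbours of Dnajb2 were chosen after their values were seen. Alternatives were DESeq2 1.42.0, RLE factors, other filters, a replicate block, a term for how the sample titles are written (Suz12 cKO replicate 3 and WT replicate 2 against the rest), each library left out and, added after seeing the data, DESeq2 on the genes tested by edgeR.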

Additional observations from a re-analysis of the deposited data

How the results depend on the processing

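The count of 0 called genes held in edgeR with RLE factors, no filter, a minimum count of 50, a term for how the sample titles are written and each library left out (0 to 0 genes). It was 1 with the replicate block, 794 with DESeq2 and 191 with DESeq2 on the genes tested by edgeR; of the 794, 703 had under 10 counts in every library of 1 genotype. Of the chaperone genes DESeq2 called 1 in each case, Dnajb2, with log2 fold changes of 8.71 and 8.71 (adjusted p = 1.57e-07 and 8.41e-07). In edgeR its value lay between 7.40 with the replicate block and 9.01, and it passed in no edgeR setting. The median log2 fold change over the members stayed within -0.05 and 0.17 over the settings. Each setting moved it by less than 0.337, the pooled SD within genotypes of the members' median log2(CPM + 1) in each library.

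The labels do not say that the replicate number pairs the libraries. Deviations of same-numbered libraries correlated at -0.0269 for number 1 and -0.0245 for number 2. The deviations of the 2 WT libraries mirror each other, so these values cannot decide whether the libraries are paired. In the replicate block Suz12 cKO replicate 3 has no partner and does not enter the difference. With this block the sign of the log2 fold change turned for Hspa9 (0.0781), Hsp90aa1 (-0.25), Dnajb6 (-0.0932), Dnajc7 (0.0295), Cct8 (0.0499) and Stip1 (-0.0105). Hsf1 turned to 0.0143 with DESeq2, 0.0128 with DESeq2 on the genes tested by edgeR, 0.0120 with RLE factors and 0.0312 without a filter. Leaving out 1 library turned the sign of 22 genes, none of them called, with ranges of -0.37 to 1.12 for Bag3, -0.34 to 0.17 for Cct2, -0.28 to 0.12 for Cct3, -0.42 to 0.19 for Cct8, -0.33 to 0.99 for Dnajb1, -0.27 to 0.996 for Dnajb11, -0.42 to 11.58 for Dnajb4, -0.38 to 0.67 for Dnajb6, -0.11 to 1.81 for Dnajb9, -0.97 to 0.12 for Dnajc7, -3.93 to 0.84 for Hsf1, -0.19 to 0.38 for Hsp90aa1, -0.96 to 0.61 for Hspa1a, -1.35 to 0.0317 for Hspa1b, -0.0689 to 0.64 for Hspa4, -0.0101 to 0.22 for Hspa5, -0.21 to 0.0837 for Hspa9, -0.66 to 3.77 for Hspb1, -4.87 to 0.0554 for Hsph1, -0.64 to 0.64 for St13, -0.29 to 0.54 for Stip1 and -0.52 to 0.29 for Tcp1. The cause was not tested. The share of the 35 genes with separate libraries was 31.4% without Suz12 cKO replicate 1, 42.9% without replicate 2, 34.3% without replicate 3, 45.7% without WT replicate 1 and 57.1% without WT replicate 2, against 31.6%, 35.5%, 32.3%, 42.1% and 42.5% of all tested genes in the same order.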
